A study of Rattus norvegicus with 11 samples.

Results

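Lysosomal proteases and lysosomal membrane proteins were followed through 10 named genes, Ctsb, Ctsd, Ctsk, Ctsl, Ctss, Ctsz, Lgmn, Cd68, Lamp1 and Lamp2, chosen by symbol from the 30560 genes of the deposited table. All 10 were found under 1 identifier each, and all 10 passed the filter on low counts. The striatum of 11 adult male Sprague-Dawley rats was profiled at day 3 by poly(A) RNA sequencing, with 1 library per rat. The 3 IC rats (common hemorrhage) were given 0.2 U of bacterial collagenase VII-S in 1.0 μL of saline, which digests vessel walls and causes bleeding into the right striatum, and the 3 IS rats (severe hemorrhage) were given 0.6 U in 3.0 μL. The 3 IS-HA rats received the IS dose, and 150 μL was drawn from the hematoma through a catheter 6 h later. The 2 Normal rats received neither collagenase nor aspiration, so the injection itself cannot be told apart from the hemorrhage. IS differed from IC in dose and in injected volume. The labels do not say whether same-numbered rats of different groups have anything in common.

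Lysosomes are acidic organelles in which hydrolases digest material that a cell has taken up or is recycling. The cathepsins B, K, L, S and Z (Ctsb, Ctsk, Ctsl, Ctss, Ctsz) are cysteine proteases, cathepsin D (Ctsd) is an aspartic protease, and legumain (Lgmn) is a cysteine protease that cuts after asparagine and helps to process cathepsins to their mature forms. LAMP1 and LAMP2 are heavily glycosylated proteins that line the lysosomal membrane of most cells, whereas CD68 is a related glycoprotein found mainly in macrophages and microglia, the phagocytes that clear erythrocytes and debris after hemorrhage. In bulk tissue, more cells of a type and more RNA per cell cannot be told apart. Many lysosomal genes carry copies of a short element, the CLEAR element, to which the transcription factor TFEB and its relatives bind, and macrophage genes often carry purine-rich sites of the ETS factor PU.1.

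The promoters are shown to describe which of the sequences searched here stand before the members. RefSeq promoters (build GRCr8, not the build of the counts) were matched by symbol for 9 of the 10 members, Ctsb being the one without an entry. The 250 bases before the annotated start were searched on both strands for the palindromic E-box CACGTG at the core of the CLEAR element, for TCACGTG, which holds that core and overlaps it, and for GAGGAAG, a sequence of the PU.1 and ETS type. Capitals mark the matches, read 5′ to 3′ on the strand of the gene.
Lamp1, chr16:83075064-83075313 (minus strand): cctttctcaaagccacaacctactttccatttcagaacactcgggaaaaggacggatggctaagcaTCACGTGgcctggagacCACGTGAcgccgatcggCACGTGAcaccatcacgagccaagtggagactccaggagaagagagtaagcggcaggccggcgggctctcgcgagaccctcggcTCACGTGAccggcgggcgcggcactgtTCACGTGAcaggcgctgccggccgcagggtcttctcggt
Ctsd, chr1:206968822-206969071 (minus strand): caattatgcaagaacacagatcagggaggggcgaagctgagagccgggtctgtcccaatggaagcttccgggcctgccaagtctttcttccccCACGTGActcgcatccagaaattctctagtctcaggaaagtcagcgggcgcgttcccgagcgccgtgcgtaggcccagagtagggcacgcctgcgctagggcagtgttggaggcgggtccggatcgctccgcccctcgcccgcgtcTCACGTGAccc
Ctsz, chr3:183653848-183654097 (minus strand): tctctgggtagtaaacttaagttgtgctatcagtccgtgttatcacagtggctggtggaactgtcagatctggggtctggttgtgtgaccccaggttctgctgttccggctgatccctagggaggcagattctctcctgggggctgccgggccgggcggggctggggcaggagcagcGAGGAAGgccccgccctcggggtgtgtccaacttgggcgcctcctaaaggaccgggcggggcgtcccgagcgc
Ctss, chr2:185775146-185775395 (plus strand): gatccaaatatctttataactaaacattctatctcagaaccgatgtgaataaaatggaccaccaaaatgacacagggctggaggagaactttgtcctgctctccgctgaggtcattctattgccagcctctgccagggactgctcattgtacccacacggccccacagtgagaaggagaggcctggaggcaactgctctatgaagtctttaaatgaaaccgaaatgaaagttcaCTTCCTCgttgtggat
Cd68, chr10:54882442-54882691 (minus strand): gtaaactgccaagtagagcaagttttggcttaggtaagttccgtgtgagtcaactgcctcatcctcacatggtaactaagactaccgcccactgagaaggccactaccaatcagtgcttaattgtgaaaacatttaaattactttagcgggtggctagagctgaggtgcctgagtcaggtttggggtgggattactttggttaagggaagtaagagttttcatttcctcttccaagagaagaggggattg
Lamp1 held 5 copies of CACGTG, the highest number in any of 33469 promoters, of which 1 reached 5. Ctsd held 2 copies. CACGTG was present in 5.59% of all promoters of this length, and 0.43% held 2 or more. The longer TCACGTG was found 7 times in Lamp1 and 3 times in Ctsd, counting overlapping matches on both strands, and in 2.79% of all promoters. GAGGAAG was found once each in Ctsz, Ctss and Ctsk, against 10.2% of all promoters with a match. Cd68, Ctsl, Lgmn and Lamp2 held no exact match to the 3 sequences in these bases. Only exact letters were searched, so sites of these types with other letters were not counted. A missing match therefore does not mean that such a site is absent. Lamp1 and Ctsd, the 2 genes with the E-box, had log2 fold changes of 1.07 and 4.62 in IS against Normal. Any bearing of the matches on RNA levels was not tested. These matches describe the letters only.

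**Figure D1:**
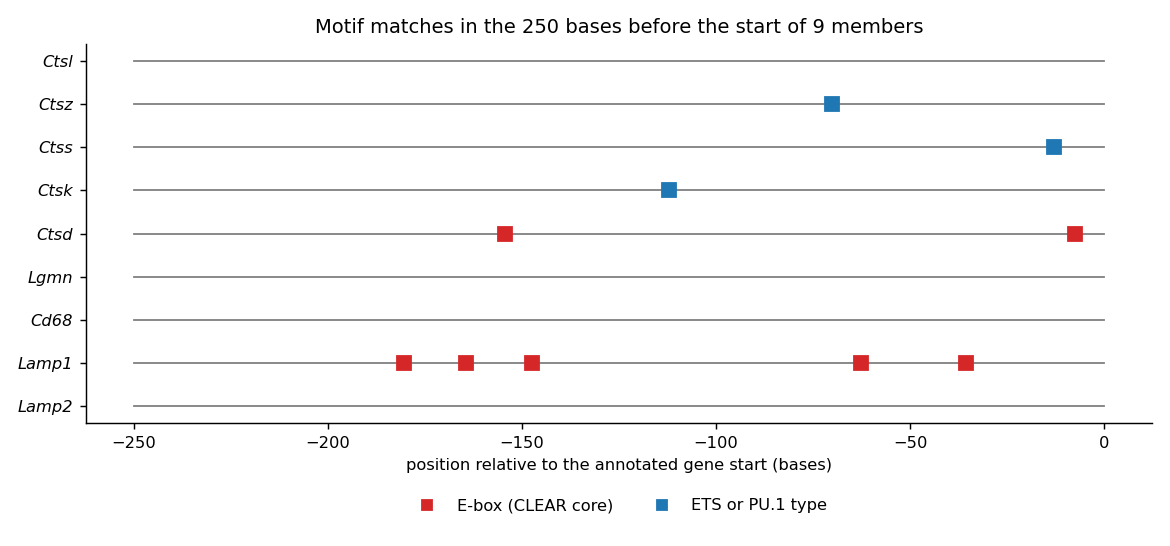
Positions of motif matches in the 250 bases before the annotated start of 9 members, with position relative to the start on the x axis and 1 line per gene. The 5 E-box matches of Lamp1 and the 2 of Ctsd stand in red, and the single PU.1 and ETS type matches of Ctsz, Ctss and Ctsk in blue.

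Counts assigned to genes ran from 6701301 in IS-HA replicate 2 to 18817645 in IC replicate 3, and IS replicate 4 had the second smallest library with 7448205. These 2 rats stood apart. Across tested genes, IS-HA replicate 2 had correlations of 0.908 and 0.916 with the other IS-HA rats, which correlated at 0.982 with each other, and IS replicate 4 was the rat least like the Normal rats (0.759 and 0.714). Defining markers of striatal projection neurons (Drd1, Drd2, Adora2a, Ppp1r1b and 4 others) were present in every rat, with summed levels of 6052 to 6464 TPM (a level scaled to gene length and to the total of each library) in Normal, 2650 to 5337 in IC, 1309 to 3407 in IS and 1323 to 2939 in IS-HA. Summed levels of the phagocyte markers Aif1, Csf1r, Itgam and Tyrobp ran from 90.7 to 118 TPM in Normal, 792 to 1109 in IC, 1327 to 2236 in IS and 981 to 1756 in IS-HA, with IS replicate 4 and IS-HA replicate 2 highest in their groups. All 4 of these markers passed the test against Normal in every hemorrhage group. The 8 neutrophil markers summed to 6.61 to 7.09 TPM in Normal, 276 to 664 in IC, 796 to 917 in IS and 533 to 1126 in IS-HA, and 7 of 7 tested ones were higher than Normal in each group. The fibroblast markers, which could supply Ctsk, summed to 63.0 to 78.9 TPM in Normal and 108 to 307 in the 9 rats with hemorrhage, and 5 of 6 passed in each group. The part of phagocytes, neutrophils and fibroblasts in the results that follow was not tested.

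Against Normal, hemorrhage was accompanied by higher RNA of nearly all members, by sizes that differed widely between genes. Cd68 had the highest fold of the 10, and the proteases Ctsz, Lgmn, Ctsd and Ctsb the next highest, while Ctsl, Ctsk and Ctss rose by smaller factors and the 2 LAMP genes had the smallest differences. With p-values of edgeR's quasi-likelihood test adjusted over 15742 genes by the Benjamini-Hochberg method, 9 of the 10 members were higher in IC than in Normal, where 13.0% of all genes tested were called higher. In IS 10 of 10 were higher, with 24.8% of all genes called higher, and in IS-HA 10 of 10, with 19.5%. The median log2 fold change of the members was 2.39 in IC, 3.49 in IS and 2.83 in IS-HA, beside medians of 0.00, 0.02 and 0.06 over all genes tested. These 3 comparisons share the same 2 Normal rats. No rat with hemorrhage overlapped the Normal rats for any member in TPM, a pattern that 34.6% of all genes tested showed in IC, 37.2% in IS and 33.3% in IS-HA.

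**Figure D2:**
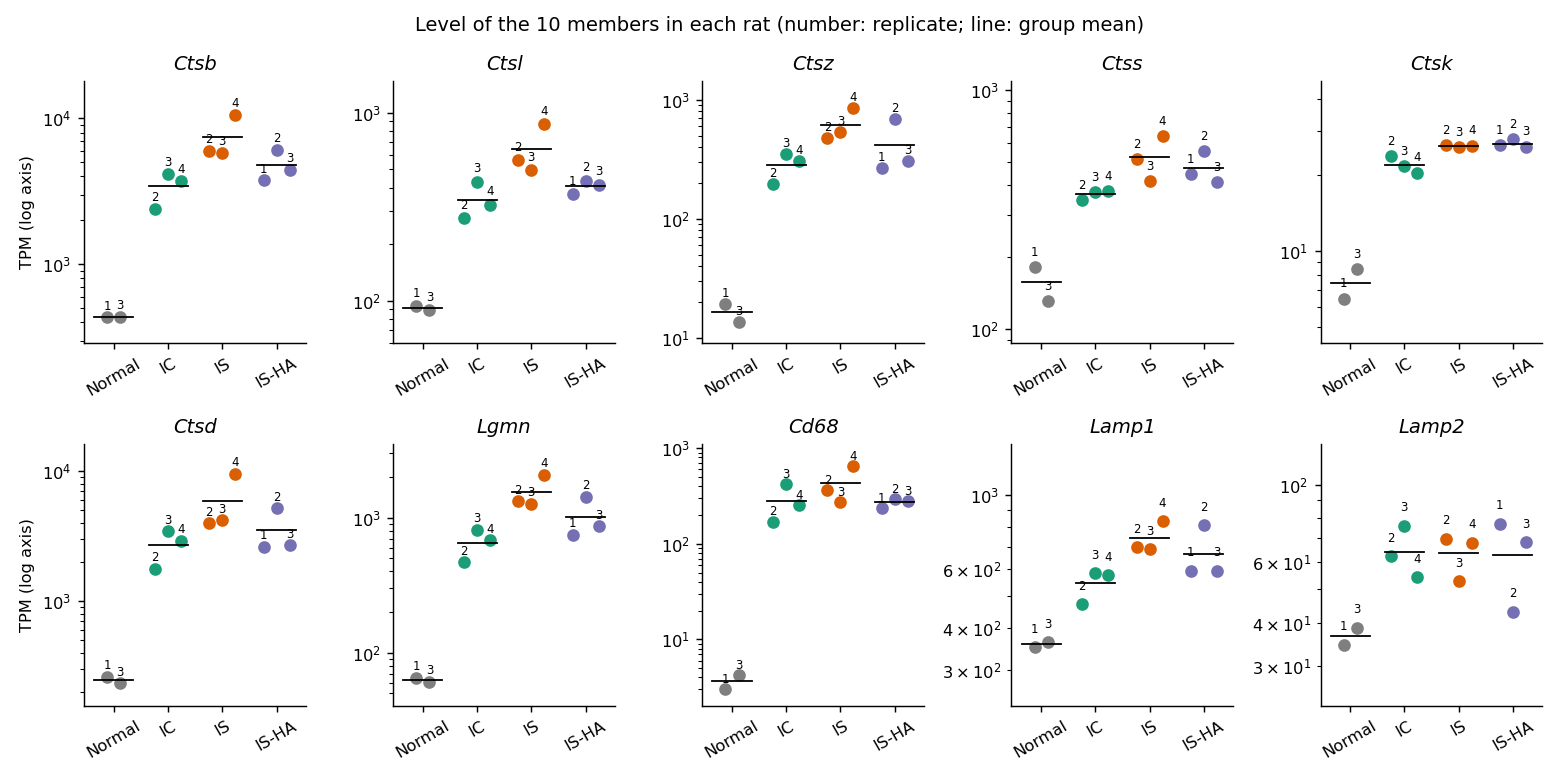
Level of each member in TPM on a log axis, with 1 point per rat labelled by its replicate number and a line at the group mean. Every rat with hemorrhage is above both Normal rats for every member, as held in each group for 33.3% to 37.2% of all genes tested, and IS replicate 4 is the highest rat for 8 of the 10 genes.

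Among the cysteine cathepsins, Ctsb (ENSRNOG00000010331), an abundant protease with both endopeptidase and exopeptidase activity, had the highest level. It stood at 432 and 434 TPM in Normal, at 2381, 4174 and 3721 in IC replicates 2, 3 and 4, at 5953, 5824 and 10613 in IS replicates 2, 3 and 4, and at 3754, 6095 and 4458 in IS-HA replicates 1, 2 and 3. IC replicate 2 was the lowest rat with hemorrhage and IS replicate 4 by far the highest, and every IS rat was above every IC rat. Against Normal the fold was 7.63 in IC, 17.7 in IS and 11.3 in IS-HA, with adjusted p of 0.00155, 1.44e-04 and 5.26e-04 (edgeR).

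Ctsz (ENSRNOG00000050697) encodes a carboxypeptidase of phagocytes. Its Normal levels were 19.1 and 13.6 TPM. The IC rats had 197, 349 and 304, the IS rats 478, 532 and 846, and the IS-HA rats 267, 685 and 309 TPM. Of the 5 cysteine cathepsins it rose most, by 16.6-fold in IC, 38.5-fold in IS and 26.9-fold in IS-HA (log2 fold change 4.05 ± 0.61, 5.27 ± 0.65 and 4.75 ± 0.64, SE). IS-HA replicate 2 was more than double the other rats of its group, and without it the log2 fold change of IS-HA against Normal was 3.99.

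Ctsl (ENSRNOG00000018566), an endopeptidase, had 93.4 and 89.5 TPM in Normal, 276, 431 and 325 in IC, 559, 497 and 869 in IS, and 369, 437 and 415 in IS-HA. The IS rats lay above all IC and all IS-HA rats. It rose 3.61-fold in IC, 7.17-fold in IS and 4.47-fold in IS-HA. Its call in IC was lost without Normal replicate 3 (log2 fold change 1.76, adjusted p = 0.0554). Rodents carry further cathepsin L-like genes that are known from placenta, and 14 of them were in the table, none above 1.17 TPM in any rat.

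Ctss (ENSRNOG00000021157), which stays active at neutral pH and trims the invariant chain during antigen presentation, had 182 and 131 TPM in Normal. It stood at 345, 374 and 376 TPM in IC, at 514, 416 and 639 in IS and at 445, 553 and 410 in IS-HA. The rise was 2.23-fold in IC, 3.37-fold in IS and 3.02-fold in IS-HA. The call in IC (adjusted p = 0.0262) was lost when Normal replicate 1 (log2 fold change 1.49, adjusted p = 0.0504), Normal replicate 3 (0.89, 0.256), IC replicate 3 (1.18, 0.0657) or IC replicate 4 (1.07, 0.0783) was left out. That in IS-HA was lost without Normal replicate 3 (1.32, 0.0639).

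Ctsk (ENSRNOG00000021155), a collagenolytic protease best known from osteoclasts, was the least abundant protease. Its Normal levels were 6.45 and 8.45 TPM, and the 9 rats with hemorrhage fell in a narrow range, 23.8, 21.6 and 20.4 TPM in IC, 26.2, 25.8 and 26.1 in IS, and 26.3, 27.8 and 25.9 in IS-HA. IS replicate 4, which was highest for most other members, was not raised for Ctsk. The rise was 2.84-fold in IC, 3.55-fold in IS and 3.59-fold in IS-HA, with adjusted p of 0.0011, 1.80e-04 and 3.03e-04.

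Ctsd (ENSRNOG00000020206), the aspartic protease, followed Ctsb in level. It had 261 and 234 TPM in Normal, 1773, 3448 and 2925 in IC, 3980, 4174 and 9563 in IS, and 2625, 5200 and 2697 in IS-HA. IS replicate 4 was more than double the other IS rats, and IS-HA replicate 2 nearly double its group. The rise was 10.5-fold in IC, 24.5-fold in IS and 14.7-fold in IS-HA, and the log2 fold change of IS fell from 4.62 to 4.01 when IS replicate 4 was left out. In IC the call was lost without Normal replicate 3 (log2 fold change 3.26, adjusted p = 0.0596).

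Lgmn (ENSRNOG00000007089), the asparaginyl protease, had 65.1 and 60.6 TPM in Normal, 466, 810 and 677 in IC, 1321, 1261 and 2073 in IS, and 749, 1430 and 863 in IS-HA. All IS rats were above all IC rats. It rose 9.96-fold in IC, 25.2-fold in IS and 16.7-fold in IS-HA, with adjusted p of 9.26e-04, 9.41e-05 and 2.91e-04.

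Cd68 (ENSRNOG00000037563), the phagocyte glycoprotein, was the lowest member in Normal, at 3.04 and 4.24 TPM, and had the largest change of the 10. It stood at 171, 425 and 252 TPM in IC, at 362, 272 and 655 in IS and at 235, 296 and 281 in IS-HA. IC replicate 3 was above 2 of the 3 IS rats, so the IC and IS groups overlapped. The fold against Normal was 74.3 in IC, 121 in IS and 74.9 in IS-HA (log2 fold change 6.22 ± 0.59, 6.92 ± 0.61 and 6.23 ± 0.60, SE). Ranked by p over all genes tested, Cd68 was number 59, 97 and 82 in the 3 comparisons.

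Lamp1 (ENSRNOG00000019629) was the second most abundant member in Normal, at 351 and 364 TPM. Its levels were 472, 582 and 576 TPM in IC, 698, 687 and 836 in IS, and 594, 810 and 594 in IS-HA. The value in IC was 1.47-fold of Normal and did not pass (log2 fold change 0.55 ± 0.28, SE, adjusted p = 0.187), although no IC rat overlapped a Normal rat, and it did pass in a fit of IC and Normal alone (adjusted p = 0.0487), without IS-HA replicate 2 (0.0491) and without both smallest libraries (0.0206). In IS it rose by 1.07 on the log2 scale (adjusted p = 0.0108), a call lost without Normal replicate 1 (log2 fold change 1.11, adjusted p = 0.0534) or Normal replicate 3 (1.03, 0.0819). In IS-HA it rose by 0.92 (adjusted p = 0.0316), a call lost in a fit of IS-HA and Normal alone (0.90, 0.102) and without IS-HA replicate 2 (0.60, 0.0562), Normal replicate 1 (0.96, 0.115) or Normal replicate 3 (0.88, 0.181).

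Lamp2 (ENSRNOG00000000164), whose splice forms take part in chaperone-mediated autophagy and in fusion with autophagosomes, rose by similar factors in the 3 groups, 1.68-fold in IC, 1.75-fold in IS and 1.67-fold in IS-HA (adjusted p = 0.0284, 0.00764 and 0.0193). Its levels were 34.6 and 38.7 TPM in Normal, 62.1, 75.97 and 54.05 in IC, 69.7, 52.6 and 68.02 in IS, and 77.1, 42.9 and 68.3 in IS-HA. IS-HA replicate 2, which was the highest of its group for the other 9 members, was the lowest of the 9 rats for Lamp2. These calls were near the threshold. Leaving out either Normal rat ended them in all 3 groups, with adjusted p between 0.0516 and 0.182, and leaving out IC replicate 3 (log2 fold change 0.65, adjusted p = 0.1001) or IC replicate 4 (0.80, 0.0541) ended that of IC. The limma fits on TPM ended those of IC (adjusted p = 0.0645 and 0.0635) and IS-HA (0.0571 and 0.0578), and a fit of IS-HA and Normal alone that of IS-HA (0.0781).

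**Figure D3:**
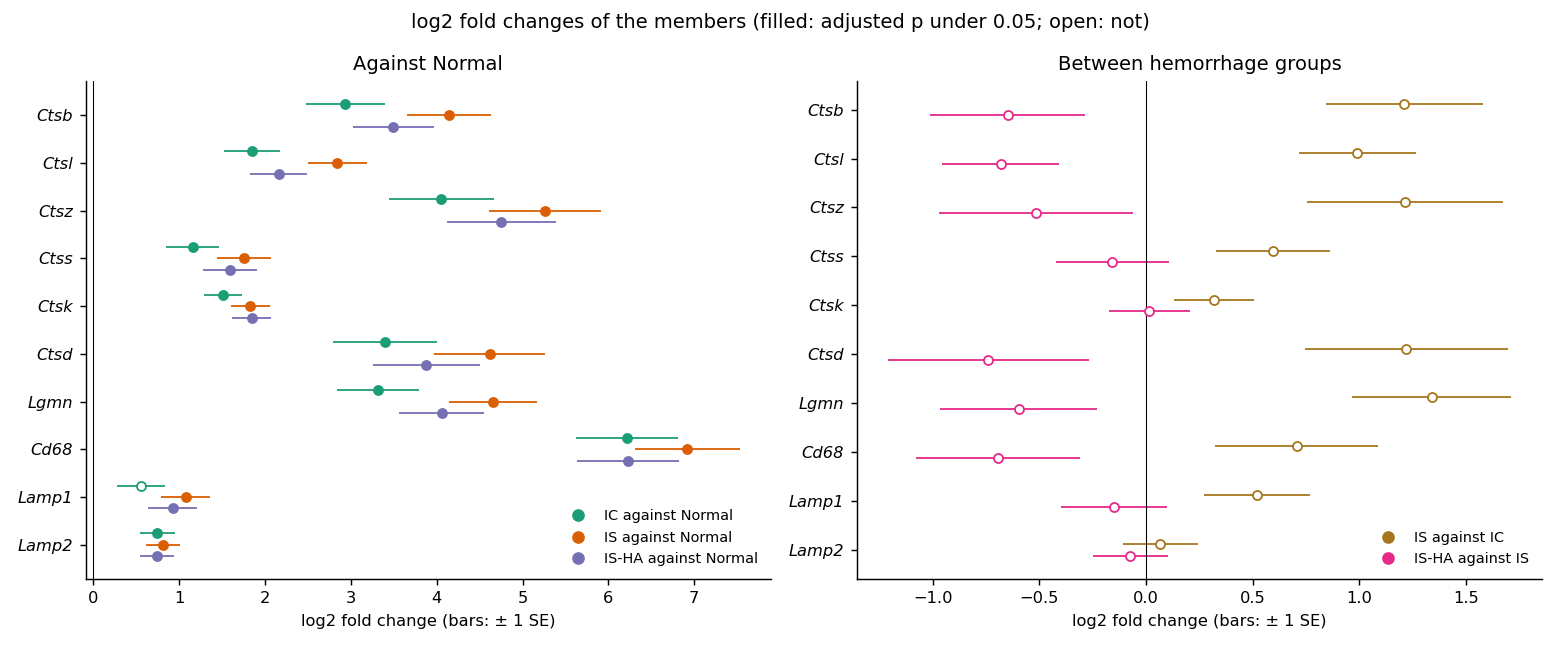
Log2 fold changes of the 10 members with bars of 1 SE, against Normal on the left and between hemorrhage groups on the right. Filled points passed an adjusted p of 0.05 and open points did not. Against Normal all points but Lamp1 in IC are filled, and all 20 points on the right are open.

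The comparison of IS with IC addressed the severity of the hemorrhage. All 10 members had higher fitted levels in IS, with log2 fold changes of 1.34 for Lgmn, 1.22 for Ctsd, 1.21 for Ctsz and Ctsb, 0.99 for Ctsl, 0.71 for Cd68, 0.59 for Ctss, 0.52 for Lamp1, 0.32 for Ctsk and 0.07 for Lamp2. Their median was 0.85, beside -0.001 over all genes tested. The share of all genes with a positive value is not given here. Several members ran closely together across rats, so their signs are not independent. The sign for Lamp2 turned in the limma fits on TPM and without IS replicate 4. None passed edgeR's adjusted test, for which 0% of all genes were called higher (0 of 15742), and the lowest adjusted p among the members was 0.148, for Ctsl and Lgmn. At an unadjusted p under 0.05, 6 members were higher (Ctsb, Ctsd, Ctsl, Ctss, Ctsz and Lgmn), beside 10.5% of all genes. In TPM, all IS rats were above all IC rats for 8 members, the exceptions being Cd68 and Lamp2, and the same held for 15.4% of all genes tested.

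With the Wald test of DESeq2 on the same counts, Lgmn (adjusted p = 0.0181), Ctsl (0.0216) and Ctsb (0.0282) were higher in IS than in IC, with 2.98% of all genes called higher. Without IS-HA replicate 2, a rat of neither group that bears on the shared spread, the filter and the scaling (15897 genes were then tested), Lgmn (adjusted p = 0.0241), Ctsz (0.0331), Ctsl (0.0336) and Ctsb (0.0344) were higher by edgeR, with 6.38% of all genes called higher. The sizes depended on IS replicate 4. Without it the log2 fold change was 1.01 for Lgmn, 0.80 for Ctsb, 0.61 for Ctsd and 0.19 for Cd68, and 0 members passed.

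The comparison of IS-HA with IS addressed the removal of the hematoma. The IS-HA rats were also anesthetized again and had a catheter passed through the hematoma, and no such procedure is described for the IS rats. The removal therefore cannot be told apart from the second procedure. The fitted levels were lower in IS-HA for 9 of 10 members, by log2 fold changes of -0.74 ± 0.47 for Ctsd, -0.69 ± 0.38 for Cd68, -0.68 ± 0.27 for Ctsl, -0.65 ± 0.36 for Ctsb, -0.60 ± 0.37 for Lgmn and -0.52 ± 0.45 for Ctsz (SE). Ctss (-0.16), Lamp1 (-0.15), Lamp2 (-0.07) and Ctsk (0.02) were within 1 SE of 0, and the sign of each of these 4 turned when a single rat was left out. The median of the 10 was -0.56, beside 0.05 over all genes tested, and the share of all genes with a negative value is not given here. None of the 10 passed the adjusted test, by which 0% of all genes were lower. At an unadjusted p under 0.05 Ctsl alone was lower (adjusted p = 0.548, edgeR), beside 3.36% of all genes, and Ctsl was also the only member with all IS-HA rats below all IS rats, a pattern of 6.37% of all genes. For Ctsb, Ctsd, Lgmn, Ctsz and Lamp1, IS-HA replicate 2 lay above the 2 lower IS rats, while replicates 1 and 3 lay below all IS rats. Without IS-HA replicate 2 the log2 fold change was -1.33 for Ctsd, -1.28 for Ctsz, -1.12 for Lgmn and -1.04 for Ctsb, with adjusted p from 0.0584 to 0.088, and without IS replicate 4 the same genes had -0.13, -0.16, -0.27 and -0.24. The count of members that passed stayed at 0 in all fits of this comparison, DESeq2 included.

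Levels of members were also set against the phagocyte markers, as log2 CPM of the member minus the mean log2 CPM of Aif1, Csf1r, Itgam and Tyrobp in the same rat. In IS the proteases stood higher relative to these markers than in IC by 0.83 for Lgmn, 0.70 for Ctsz, 0.69 for Ctsb, 0.63 for Ctsd and 0.46 for Ctsl. For these 5 proteases the 3 IS rats were all above the 3 IC rats (two-sided exact permutation test, p = 0.1 each, the smallest that 3 rats against 3 allow), as were 4.06% of all gene symbols tested on this scale. Cd68 (0.19), Ctss (0.08), Lamp1 (0.03), Ctsk (-0.17) and Lamp2 (-0.43) overlapped between the groups (exact permutation p from 0.2 to 0.8). With 10 members compared, no adjusted p could pass. Between IS and IC these 4 markers had a median log2 fold change of 0.44, with 3 positive and 1 negative. The homeostatic microglia markers P2ry12, Tmem119, Cx3cr1, Siglech, Sall1 and Gpr34 had -0.59, with 2 positive and 4 negative, and were not used as a reference. The size depended on the markers. Against Spi1, Ptprc, Fcer1g and Itgb2 instead, the groups stayed apart for Lgmn (0.48), Ctsz (0.35) and Ctsb (0.33). They overlapped for Ctsd (0.28) and Ctsl (0.11), and Lamp2 (-0.78) was lower in all IS rats. The share of all genes apart with these markers is not given here, so this split between members is a description. With these markers the median over the members went from 0.32 to -0.03. With the first 4 markers, leaving out 1 rat moved it to between 0.26 and 0.47 (the latter without IS replicate 3).

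The same difference between IS-HA and IS was -0.42 for Ctsd, -0.36 for Ctsz, -0.35 for Lgmn, -0.34 for Ctsl and Ctsb, and -0.29 for Cd68, and it was 0.31 for Ctsk, 0.23 for Lamp2, 0.13 for Ctss and 0.12 for Lamp1. The groups did not overlap for Ctsl and Ctsk (exact permutation p = 0.1 each), and they did not for 9.82% of all gene symbols tested, in either direction. With the other 4 markers Ctsl overlapped (-0.11) and Ctsk stayed apart (0.54). Lamp2 (0.46), Ctss (0.36) and Lamp1 (0.34) overlapped. The share of all genes apart between IS-HA and IS with those markers is not given here. The first 4 markers were themselves 3.51 higher in IS than in Normal, as a mean on the log2 scale. A member that rose by less than these markers therefore comes out negative, although its own RNA was higher in IS. Relative to Normal, the members had differences of both signs. Cd68 stood 3.21 higher in IS than in Normal relative to the markers, Ctsz 1.72, Lgmn 1.10, Ctsd 0.96 and Ctsb 0.56, whereas the difference was -2.71 for Lamp2, -2.45 for Lamp1, -1.75 for Ctss, -1.70 for Ctsk and -0.72 for Ctsl on the log2 scale (exact permutation p = 0.2 each, the smallest that 3 rats against 2 allow). With the other 4 markers, Ctsb turned to -0.23 and overlapped Normal, as did Ctsd at 0.18, while Cd68 was 2.43, Ctsz 0.93 and Lgmn 0.31. The share of all genes apart between IS and Normal relative to either set of markers is not given here.

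**Figure D4:**
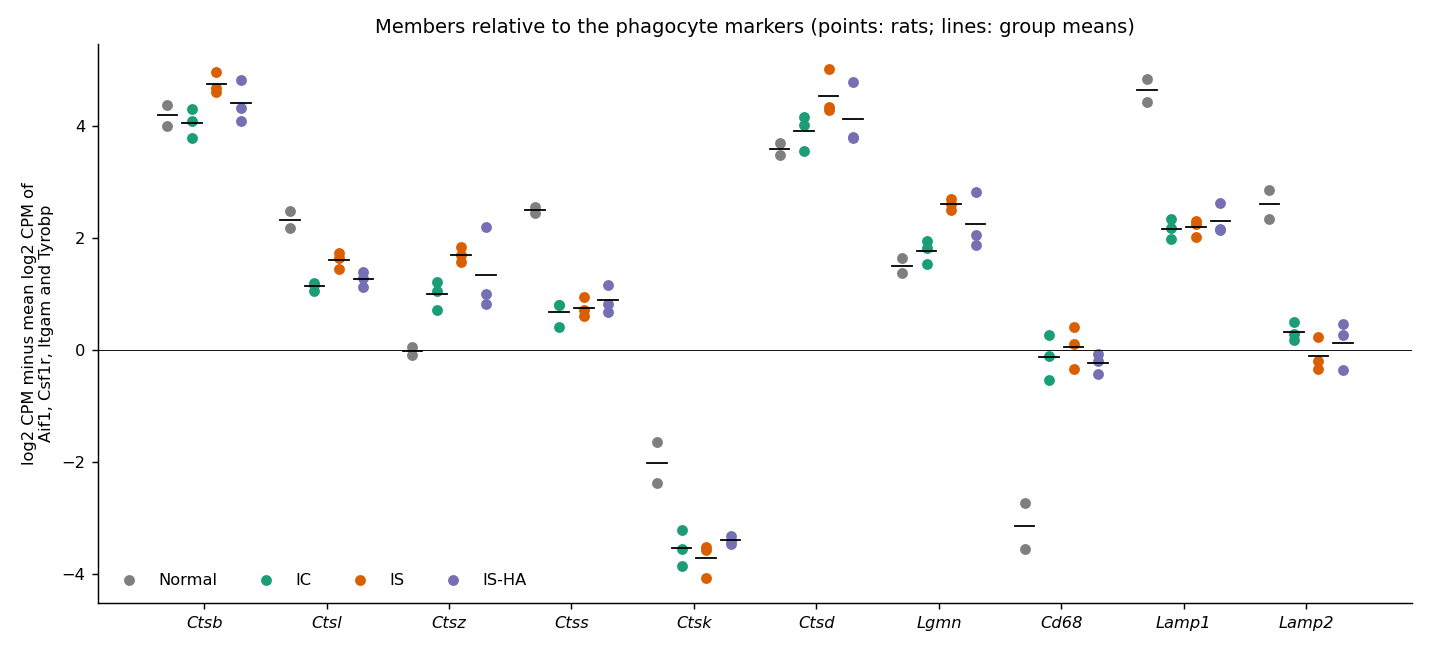
Log2 CPM of each member minus the mean log2 CPM of the 4 phagocyte markers in the same rat, with points for rats and lines at group means. With these markers, Cd68, Ctsz, Lgmn, Ctsd and Ctsb are higher in the IS rats than in Normal (Ctsb turned to -0.23 with the other 4 markers), and Lamp1, Lamp2, Ctss, Ctsk and Ctsl lower. The 4 markers themselves rose by a mean of 3.51 on the log2 scale in IS, so members that rose less stand lower here.

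Summed per gene length, the 7 proteases took up 0.102% ± 0.0062 (SD, n = 2) of all TPM in Normal, 0.781% ± 0.213 (SD, n = 3) in IC, 1.67% ± 0.684 (SD, n = 3) in IS and 1.06% ± 0.334 (SD, n = 3) in IS-HA. In IS replicate 4 they reached 2.46%, and in the other 2 IS rats they were at 1.27% and 1.28%. The make-up of the pool shifted against Normal. Ctsd went from 24.4% ± 0.374 of the pool in Normal to 34.5% ± 1.78 in IC, 34.2% ± 4.09 in IS and 32.4% ± 3.36 in IS-HA. Ctss went the other way, from 15.3% ± 2.60 to 4.91% ± 1.26, 3.29% ± 0.705 and 4.57% ± 0.794, and Ctsl from 9.01% ± 0.280 to 4.48% ± 0.578, 3.93% ± 0.416 and 4.01% ± 0.852 (SD). Ctsb had a share near its Normal 42.7% ± 2.73, with 43.9% ± 0.608, 45.1% ± 1.75 and 45.5% ± 3.17. Ctsz went from 1.60% of the pool to between 3.63% and 3.78%, and Lgmn from 6.19% to between 8.36% and 9.54%. These shares were not tested.

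The 3 membrane proteins summed to 398 ± 12.6 TPM in Normal (SD, n = 2), 890 ± 189 in IC, 1233 ± 288 in IS and 999.2 ± 131 in IS-HA (SD, n = 3). In Normal, Lamp1 made up 89.9% ± 0.620 of this sum and Cd68 0.912% ± 0.186. In the hemorrhage groups Cd68 was 30.7% ± 7.71 in IC, 33.6% ± 7.70 in IS and 27.2% ± 2.26 in IS-HA, and Lamp2 5.25% to 7.32% beside 9.20% in Normal.

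**Figure D5:**
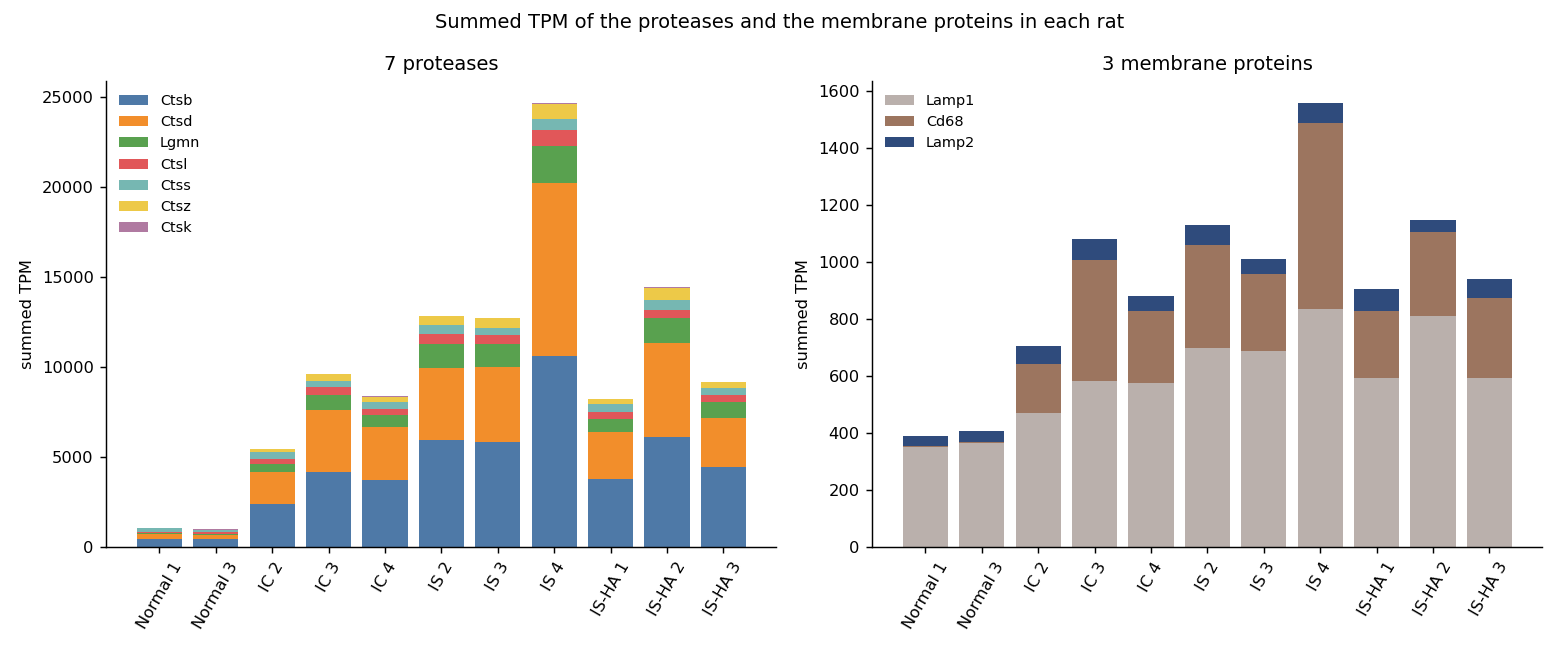
Summed TPM of the 7 proteases on the left and of the 3 membrane proteins on the right, with 1 stacked bar per rat and 1 colour per gene. Ctsb and Ctsd make up most of each protease bar, and the Cd68 part of the membrane protein bars is visible in the rats with hemorrhage and hardly in Normal.

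The order of levels changed with hemorrhage. In Normal it was Ctsb, Lamp1, Ctsd, Ctss, Ctsl, Lgmn, Lamp2, Ctsz, Ctsk and Cd68 from highest to lowest mean TPM, and no neighbours overlapped between the 2 rats. In IS it was Ctsb, Ctsd, Lgmn, Lamp1, Ctsl, Ctsz, Ctss, Cd68, Lamp2 and Ctsk. There the ranges of Ctsb and Ctsd overlapped, as did each neighbouring pair from Lamp1 to Cd68. Cd68 thus moved from the last place to the eighth, above Lamp2 and Ctsk in all 9 rats with hemorrhage.

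Across these 9 rats, the log2 CPM of Ctsb, Ctsd, Ctsl, Ctsz and Lgmn ran closely together, with Pearson r from 0.918 to 0.990 over the 10 pairs. Lamp2 stood apart, with r between -0.33 (with Ctsk) and 0.40 (with Cd68). These values cover 3 groups that differ in mean and share library properties, so they are a description. The genes most like each member by r over the 9 rats were Cotl1 and Ddx39a for Ctsb, Kcnk6 and Was for Ctsl, Lman2 and Lst1 for Ctsz, Selenos and Mfap2 for Ctss, Snrpgl1 and Atp6v1c1 for Ctsk, and Ly96 and Rbm38 for Ctsd. They were Tmem14c and Hnrnpab for Lgmn, Scpep1 and Mreg for Cd68, Tmem176b and Dera for Lamp1, and Spag17 and Itga4 for Lamp2. Their r ran from 0.965 for Lamp2 and Itga4 to 0.998 for Ctsz and Lman2.

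Other lysosomal genes were read from lists, 83 genes in the table of which 78 were tested. In IC 31 were higher and 1 lower than Normal, in IS 47 and 4, and in IS-HA 35 and 3. Of all genes tested, 13.0%, 24.8% and 19.5% were called higher in these groups and 4.64%, 24.2% and 12.1% lower. The same shares stand beside the counts of the lists that follow. The median log2 fold change of the 78 genes was 0.65 in IC, 1.04 in IS and 0.81 in IS-HA, below the medians of the 10 members. Between IS and IC, and between IS-HA and IS, 0 passed in either direction, with 23 and 8 of 78 at an unadjusted p under 0.05, beside 22.2% and 8.94% of all genes in either direction.

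Of 7 further cathepsins tested, 5 were higher in IC and 4 in IS and in IS-HA. Ctsc, the dipeptidyl peptidase that activates granule proteases, rose most (3.84 TPM on average in Normal, 59.3 in IC, 130 in IS and 73.2 in IS-HA). Ctsa, a protective partner of lysosomal glycosidases, rose 6.97-fold in IS, and Ctsh, an aminopeptidase, 4.91-fold. Among the cathepsin inhibitors, Cst7 rose in all 3 groups and Cstb rose 4.99-fold in IS. The Cst7 fold is poorly bounded, since the 2 Normal rats had 3 counts in all and the IS rats 213, a ratio of 79.2 (exact 95% interval 26.7 to 387, counting error only). Cst3, the main secreted inhibitor of brain, had a log2 fold change of 0.20 in IS (adjusted p = 0.708) and did not pass in any group.

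Of the hydrolases and other lumenal proteins, 18 of 31 were higher in IC, 25 in IS and 21 in IS-HA, and Ids, iduronate 2-sulfatase, was the 1 that was lower (IS, log2 fold change -1.15). Grn, progranulin, rose 14.9-fold in IS, Npc2, a cholesterol carrier, 8.78-fold, Gusb, β-glucuronidase, 7.44-fold, Lipa, acid lipase, 6.91-fold and Hexa, a glycosidase subunit, 3.94-fold.

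The lysosomal membrane list split, with 6 of 12 higher and 2 lower in IS, beside 24.8% of all genes higher and 24.2% lower. Gpnmb, a glycoprotein of lipid-laden phagocytes, rose 260-fold, from 7.73 to 1971 TPM on average. Cd63, a tetraspanin, rose 14.7-fold and Laptm5, a protein of hematopoietic cells, 13.7-fold. Lamp5, a neuronal LAMP relative, fell by 1.41 on the log2 scale and Tmem106b by 1.45, while Scarb2 had -0.30 (adjusted p = 0.456). Of the 14 V-ATPase subunits tested, which acidify the lysosome, 1 was higher in IC, 3 in IS and 1 in IS-HA. These are no larger shares than the 13.0%, 24.8% and 19.5% of all genes called higher, and the median log2 fold change was -0.03 in IS. Atp6v0e1 was higher in all 3 groups. It, Ids, Lamp5, Tmem106b and Sort1 were picked out once their values were known. Atp6v1a had -0.74 in IS (adjusted p = 0.0539), and Atp6v0d2, below 1.36 TPM in every rat, was not tested.

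Of 10 genes for sorting and transcription, 2 were higher in IC, 7 in IS and 2 in IS-HA. Of all genes, 13.0%, 24.8% and 19.5% were called higher, so the count in IS-HA was near that share. M6pr, the mannose 6-phosphate receptor that carries hydrolases to the lysosome, rose by 1.07 on the log2 scale in IS. The sorting receptor Sort1 was lower in all 3 groups, by 1.49 on the log2 scale in IS. Tfeb rose 2.82-fold in IS (adjusted p = 0.0186) and Mitf 2.14-fold (0.0205), and neither passed in IC or IS-HA. Tfec, a relative found in myeloid cells, rose in all 3 groups from 2 counts in all in Normal, with 174 counts in IS, a ratio of 97.1 (exact 95% interval 26.5 to 808, counting error only).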

How the data were processed

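RNA of the striatum at day 3 was read as stranded poly(A) libraries with 150 bp paired-end reads. Per the labels and the submitters' processing notes, fastp 0.20.0, FastQC 0.11.9, HISAT2 2.1.0, SAMtools 1.9, featureCounts and the build mRatBN7.2 were used by the authors, and the annotation version is not given in the sources used here. The deposited table holds whole-number read counts for each gene and, beside them, TPM values that the authors scaled by gene length. All columns were matched to rats by library name.

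Counts were filtered with filterByExpr, normalized by TMM and tested in 1 quasi-likelihood fit over the 4 groups in edgeR 4.0.16 (R 4.3.3), with Benjamini-Hochberg adjustment over 15742 genes and a threshold of 0.05. An SE is the size of a log2 fold change over the square root of its F statistic. Alternatives used DESeq2 1.42.0, limma 3.58.1 on log2(TPM + 1) and log2(TPM + 0.1), other scalings and filters, rats left out and the replicate number as a block. The method was also run on simulated counts for IS against IC alone, drawn with 1 common dispersion (0.0691). That setting holds no rats that stand apart, so it cannot show how the test behaves with them. Values relative to phagocyte markers used log2 CPM with a prior count of 2 and exact permutation tests (scipy 1.17.1). Python 3.11.15 and matplotlib 3.10.9 served for the plots.

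The members and lists were chosen with earlier results of these data known. Named genes were the 10 members, 22 genes fixed from the lists (1 of them is not reported here) and the 2 genes most correlated with each member. Ids, Sort1, Lamp5, Tmem106b and Atp6v0e1 were outside that rule. Depth was 6701301 to 18817645 counts, and a floor of 3 counts stands at 0.159 to 0.448 CPM, a limit for counting error alone, as PCR copies cannot be told from separate molecules. The labels number the replicates of each group, which the paper calls biological replicates, and each was read as 1 rat. The p-values of edgeR set a group difference against a spread between rats estimated over the 4 groups together. Promoters come from RefSeq (GRCr8). No coordinates of the genes are printed for the build of the counts.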

Additional observations from a re-analysis of the deposited data

How the results depend on the processing

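The count of members higher than Normal ran from 5 to 10 in IC, 8 to 10 in IS and 7 to 10 in IS-HA when each rat was left out in turn, the 5 being without Normal replicate 3, and the median log2 fold change of the members from 2.26 to 2.58, 3.11 to 3.66 and 2.53 to 2.99. The count of other lysosomal genes higher ran from 12 to 38, 33 to 52 and 19 to 40, with 15 and 12 in IC without Normal replicate 1 and 3 and 19 in IS-HA without Normal replicate 3. In IS against IC those ranges were 0 to 4 members, 0 to 11 other lysosomal genes and medians of 0.49 to 1.10, in IS-HA against IS 0 to 0 members, 0 to 1 other genes higher, 0 to 1 lower and medians of -0.90 to -0.14. The 4 members, 11 genes and 1 gene in each direction came without IS-HA replicate 2. DESeq2's Wald test gave 3 members and 6 other lysosomal genes higher in IS than in IC. Without the 2 smallest libraries together, a choice made after seeing the data, these were 1 member (Lgmn) and 1 gene, beside 89 of all 16018 genes. In that fit 10, 10 and 10 members were higher than Normal in IC, IS and IS-HA, beside 3337, 4421 and 3149 of all genes. The number of all genes called higher moved too. In IC it was 1305 of 15694 without IC replicate 3, where 7 members passed. It was 3051 of 15897 without IS-HA replicate 2, where 10 members passed. Fits without a Normal rat rest on the other Normal rat alone. In those fits fewer of all genes were called higher than in the main fit, in all 3 groups. The cause of these differences was not tested.

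Same-numbered rats are different animals. Deviations from the group means correlated between -0.34 and 0.36 in the 3 same-numbered pairs of IS and IC. In the 2 pairs of IS-HA and IS they correlated at -0.48 and -0.09. These pairs are too few to decide whether same-numbered rats have anything in common. With the replicate block, 6, 8 and 8 members were higher than Normal in IC, IS and IS-HA, beside 824, 1879 and 1752 of all 15742 genes. The member medians were then 2.06 in IC and 3.09 in IS, and 13 and 29 other lysosomal genes were higher in IC and IS. Between hemorrhage groups 0 members and 0 of all genes passed.

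Signs turned for values near 0. Lamp2 in IS against IC was -0.0103 with limma on log2(TPM + 1), -0.0104 on log2(TPM + 0.1) and -0.0393 without the 2 smallest libraries, and ran from -0.0401 (without IS replicate 4) to 0.19 (without IS replicate 3) when single rats were left out. In IS-HA against IS, Ctsk was -0.01 with DESeq2's size factors, -0.0187 with DESeq2's Wald test, -0.10 without the 2 smallest libraries and between -0.15 and 0.0886 with single rats left out, negative without IS replicate 2, IS replicate 3 or IS-HA replicate 2. Ctss ran from -0.45 to 0.0718, Lamp1 from -0.48 to 0.0016 and Lamp2 from -0.22 to 0.0442 with single rats left out, positive without IS replicate 4 and, for Lamp2, without IS-HA replicate 2. Lamp1 was 0.0332 with the replicate block, and Lamp2 was 0.15 without the 2 smallest libraries. Relative to the phagocyte markers, the median over members with Spi1, Ptprc, Fcer1g and Itgb2 as reference was -0.0302 in IS minus IC and -0.87 in IS minus Normal. Leaving out rats gave 0.26 to 0.47 in IS minus IC, -0.386 to -0.132 in IS-HA minus IS and, without Normal replicate 1 or 3, -0.25 to 0.0858 in IS minus Normal. Depth sets the limit for low genes such as Ctsk, which had 71 to 256 counts, and Cd68, which had 30 and 41 counts in the Normal rats.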
